A study of Arabidopsis thaliana with 9 samples.

Results

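The 419 transcription units described here were detected on every array of a custom one-colour Agilent array hybridised with RNA from Arabidopsis thaliana seedlings. They were selected on detection: a unit qualified where at least 1 of its probes was well above background, by the scanner software's own test, on all 9 arrays. They make up 419 of 3569 units that are named by a number alone (AT, a chromosome digit, TU and a number), and 616 of the 10459 probes for such units were well above background throughout. Because detection in all 3 genotypes chose the members, their presence in every genotype is not a result, and a unit that fell to background in any genotype could not be a member. Each unit is represented by the brightest of its probes that met the rule.

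Seedlings aged 2 weeks, grown on solid MS medium under long days, were compared in 3 genotypes with 3 biological replicates each. The genotypes were the wild type Col-0 (WT), the mutant se-2 and the double mutant cbp20 cbp80 (cbp20,80 in the labels). No other allele and no treatment is given in the labels. The array held probes of 0 of the 3 mutated genes, so the genotypes could not be checked by their own transcripts, and 0 of 9 marker genes of photosynthetic cells, root or floral organs, so the tissue could not be checked either.

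SERRATE, the gene mutated in se-2, codes for a zinc finger protein. It assists the Dicer enzyme DCL1 as microRNA precursors are cut, and it also has a part in splicing. CBP20 and CBP80 are the small and large subunits of the nuclear cap-binding complex, which sits on the 5′ cap of new RNA polymerase II transcripts and acts in the same processing steps. Long intergenic noncoding RNAs are capped RNA polymerase II transcripts from between protein-coding genes, and the study asked which of them change in these mutants. The units carry no symbol: 0 of the 419 were found in the RefSeq gene table, so no function is given to any of them. The files hold no probe sequence, and none is shown.

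Detection split the units sharply. The best probe was well above background on no array in 1299 of the 3569 units (36.4%), on 1 array in 962 (27%), on 8 arrays in 155 (4.34%) and on all 9 in 419 (11.7%). The members came in similar shares from all chromosomes: 11.8% of the units numbered on chromosome 1, 10.4% on 2, 12.9% on 3, 11.7% on 4 and 12.2% on 5. Of the other transcripts on the array, 387 of 479 named loci, 65 of 173 microRNA precursors and 73 of 930 transcription units whose names hold coordinates were detected throughout. These shares describe this array's probes and were not tested.

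**Figure D1:**
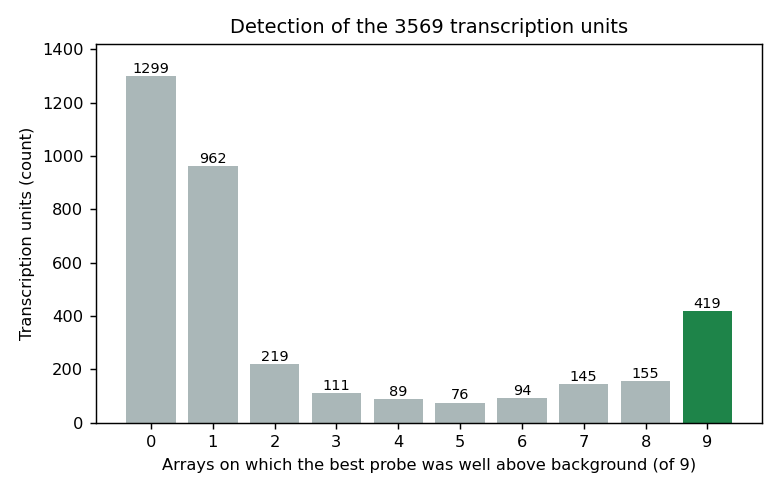
Number of arrays (x axis, 0 to 9) on which a unit's best probe was well above background, against the number of transcription units (y axis, count). The green bar is the 419 units detected on all 9 arrays, and the grey bars are the units outside the rule, with 1299 units detected on none.

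The members just inside the rule had signals close to background. AT1TU024330 had processed signals, in the scanner's linear units, of 5.36, 7.75 and 5.97 for WT, 7.40, 8.38 and 9.24 for se-2, and 7.17, 5.57 and 7.26 for cbp20 cbp80. AT2TU038120 and AT3TU043000, the next dimmest by mean signal, averaged 7.54 and 7.80. The lowest signal of any probe well above background lay between 3.65 and 5.88 on the 9 arrays, so these members sat only a little above it.

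Just outside the rule stood 155 units with a best probe missed on 1 array. The missed array was a WT array in 138 of them, WT replicate 1 in 104, and that array also had the fewest probes of these units well above background (843, against 1259 to 1910 on the other arrays). AT2TU054560 had signals of 3.59, 7.35 and 7.83 in WT, 535.6, 484.8 and 489.9 in se-2 and 131.3, 129.4 and 125.7 in cbp20 cbp80, and was left out because of WT replicate 1. AT2TU017630, missed on WT replicate 3, had 18.1, 86.7 and 6.27 in WT, 149, 144.5 and 152.9 in se-2 and 101.2, 88.3 and 90.8 in cbp20 cbp80. AT2TU003090, missed on WT replicate 1, had 5.14, 211.4 and 4.68 in WT against 39.2 to 65.5 in the mutants. Not all near misses were low in WT as a whole: AT4TU001950, missed on WT replicate 1, had 2.88, 7.41 and 59.6 in WT against 20.6 to 31.8 in the mutants. A low signal on a single WT array could thus leave a unit out whatever its signal in the mutants.

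Of the members, 272 of those with 3 probes on the array had 1 that met the rule, 77 had 2 and 59 had all 3, and 11 more units had only 2 probes on the array. Signals of different probes depend on the probe as well as on the RNA and are not compared as amounts.

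The members with the highest mean signal were AT2TU000020, AT3TU041570, AT2TU034760, AT2TU000010, AT2TU036480 and AT3TU078950. AT2TU000020 read 83560, 304800 and 186800 in WT, 203900, 192500 and 209700 in se-2 and 203700, 201400 and 189700 in cbp20 cbp80, with no saturated spot. AT3TU041570 read 29730, 78730 and 29240 in WT, 54770, 60650 and 61800 in se-2 and 52000, 53450 and 50830 in cbp20 cbp80. In both units the WT arrays differed among themselves by more than the mutant arrays did before any scaling. The median member read 19.9 to 43.5 on the WT arrays, 57.0 to 59.2 with se-2 RNA, and 45.6 to 49.0 with cbp20 cbp80 RNA. Values from here on are scaled: the log2 signal of a probe minus the array's 75th percentile, taken over the 1835 probes that passed the detection test on every array, 616 of them the members' own.

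WT arrays varied far more than the mutant arrays. Over the 3 arrays of a genotype, a member's median SD in scaled log2 signal was 0.47 for WT, 0.08 for se-2 and 0.10 for cbp20 cbp80. The SD was above 1 in 57 members in WT and in 0 in either mutant. Across the 419 members, the correlation between arrays (a description: the arrays of the mutants share a slide) was 0.871 to 0.923 within WT, 0.996 to 0.997 within se-2 and 0.993 to 0.996 within cbp20 cbp80. It was 0.974 to 0.982 between se-2 and cbp20 cbp80, and 0.833 to 0.910 between WT and a mutant. The leading principal component (56.8% of the variance) set WT apart from both mutants, and the next one (18.2%) set the WT arrays apart from each other. All 6 mutant arrays lay on 1 slide with 1 scan and each WT array on a further slide of its own, so genotype and slide cannot be told apart in any comparison with WT. WT replicates 1 and 2 also had another scanner software version than the other arrays, and WT replicate 3 another protocol name.

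**Figure D2:**
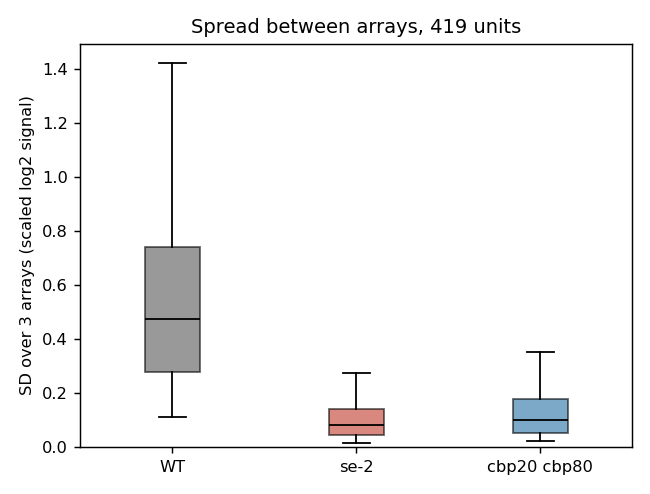
Spread of the 419 units between the 3 arrays of a genotype (x axis), as the SD of the scaled log2 signal (y axis). Boxes give the median and quartiles over units and whiskers the 5th and 95th percentiles: the medians are 0.47 (WT), 0.08 (se-2) and 0.10 (cbp20 cbp80).

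Some members kept the same level on all arrays. AT1TU079520 had the smallest SD over the 9 arrays (0.09), with scaled log2 signals of −0.00, 0.30 and 0.22 in WT, 0.16, 0.11 and 0.09 in se-2 and 0.04, 0.10 and 0.18 in cbp20 cbp80. AT2TU032980 read 4.61, 4.59 and 4.82 in WT, 4.67, 4.67 and 4.67 in se-2 and 4.88, 4.92 and 4.85 in cbp20 cbp80, an SD of 0.12 over the arrays. AT1TU065400, AT1TU078160 and AT4TU021880 followed with SDs of 0.13, 0.14 and 0.14. The groups of AT1TU079520 overlapped, and the mutants of AT2TU032980, which did not overlap each other, differed by −0.21 (SE 0.04, adjusted p = 0.00906). The sign of that difference depends on the scaling, from −0.21 as reported to 0.18 after quantile normalization and 0.61 when arrays were scaled to positive control probes (spike-in scaling). The members that varied most over the arrays were AT1TU056980 (SD 2.18), AT5TU072360 (1.91), AT5TU048980 (1.66), AT1TU058220 (1.58) and AT1TU076550 (1.56), and in each of these WT lay on 1 side of both mutants, as described below.

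The comparison of se-2 with cbp20 cbp80 asks whether the SERRATE mutant and the cap-binding double mutant have the same transcript levels, and it is the only one made within a slide. A difference of 28 members held under each of the 7 scalings tried: 14 units were higher in se-2 and 14 were higher in cbp20 cbp80. Under the 6 scalings planned, 14 were higher and 49 lower in se-2, so the even split comes with the control-probe (spike-in) scaling, which was added after seeing the data. No share over all transcripts was taken for the 6 planned scalings, so their split is no result about the members. Among all 1691 transcripts tested, 6.68% were called higher and 2.48% lower under all 7 scalings, against 14 of 419 members in each direction. Of those detected on every array, 39 of 65 microRNA precursors, 37 of 387 named loci and 1 of 73 coordinate-named units were higher. Lower ones numbered 0, 8 and 0. The higher units were led by AT4TU041990, AT3TU071950 and AT1TU056980, and the lower units by AT5TU068220, AT5TU059430 and AT2TU003060. Signal in whole seedlings does not tell fewer cells of a type from less RNA per cell.

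AT4TU041990 showed the largest excess in se-2. Its scaled log2 signals were −2.62, −2.62 and −2.43 in se-2, −4.67, −4.46 and −4.51 in cbp20 cbp80 and −4.98, −6.07 and −5.64 in WT. All se-2 arrays lay above all others, and cbp20 cbp80 lay above WT. The se-2 level was 3.98-fold that of cbp20 cbp80 (log2 difference 1.99, SE 0.09, adjusted p = 5.10e-05 by limma). Its number places it on chromosome 4 between units whose names give starts of 12099438 and 12495727, in a genome build that the files do not name. Such a placement rests on the order of the numbers: among the 930 units with a start in the name, all 925 neighbours in number on a chromosome had rising starts.

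AT3TU071950, numbered between starts of 20662238 and 21240630 on chromosome 3, read −2.80, −2.80 and −2.85 in se-2, −4.25, −4.22 and −4.06 in cbp20 cbp80 and −4.28, −3.84 and −3.67 in WT, in scaled log2 signal. Here the cbp20 cbp80 arrays overlapped WT and se-2 stood above both, by 2.57-fold over cbp20 cbp80 (log2 difference 1.36, SE 0.06, adjusted p = 6.54e-05). All 3 probes of this unit gave a difference between 1.29 and 1.36. Under normexp background correction, which shrinks differences of dim probes, the differences of AT4TU041990 and AT3TU071950 were 0.48 and 0.14, and both were still called.

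AT1TU056980 read 2.67, 2.52 and 2.58 in se-2, 1.40, 1.39 and 1.32 in cbp20 cbp80 and −3.24, −0.76 and −2.17 in WT. The genotypes did not overlap, with WT lowest and se-2 highest. The se-2 level was 2.32-fold that of cbp20 cbp80 (log2 difference 1.22, SE 0.06, adjusted p = 6.54e-05), and its 3 probes gave 1.18 to 1.30. In the fit of all 9 arrays, where WT adds its spread, the call ended (adjusted p = 0.253).

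AT5TU090930 read −1.69, −1.76 and −1.72 in se-2 and −2.66, −2.79 and −2.73 in cbp20 cbp80, and the WT arrays (−2.76, −3.32 and −3.66) did not overlap se-2. AT1TU078200 read −1.49, −1.55 and −1.62 in se-2, −2.47, −2.32 and −2.44 in cbp20 cbp80 and −2.71, −3.13 and −3.33 in WT, with no overlap between genotypes. The excess in se-2 over cbp20 cbp80 was 2-fold for AT5TU090930 (SE 0.05 on the log2 scale, adjusted p = 9.24e-05) and 1.81-fold for AT1TU078200 (SE 0.06, adjusted p = 3.19e-04). After normexp these differences were 0.42 and 0.40 on the log2 scale, and still called. AT5TU074240 differed in its relation to WT: se-2 (0.86, 0.85 and 0.83) lay within the range of WT (1.11, 1.13 and 0.28), and cbp20 cbp80 (−0.16, −0.11 and −0.14) lay below it. Its 3 probes gave differences of 0.98 to 1.02 between the mutants, and the brightest an adjusted p of 3.90e-05.

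AT2TU063000 read 0.79, 0.77 and 0.78 in se-2, 0.15, 0.15 and 0.12 in cbp20 cbp80 and −3.76, −0.23 and −1.98 in WT, a difference between the mutants of 0.64 (SE 0.04, adjusted p = 1.58e-04). The WT arrays of this unit spread over more than 3 log2 units, and the call between the mutants ended when all 9 arrays were fitted (adjusted p = 0.727). The other units higher in se-2 under all scalings had smaller differences: AT5TU078360 (0.54), AT5TU050820 (0.49), AT5TU061940 (0.37), AT5TU090120 (0.35), AT4TU029990 (0.34), AT4TU037980 (0.33) and AT3TU053450 (0.28). AT2TU000580, with a difference of 0.96 (adjusted p = 0.00113), was called under 6 of the scalings and lost the call under normexp (0.08, adjusted p = 0.0726).

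AT5TU068220 showed the largest excess in cbp20 cbp80. Its scaled log2 signals were 4.09, 4.06 and 3.96 in cbp20 cbp80, 1.59, 1.70 and 1.74 in se-2 and 1.32, 1.71 and 1.78 in WT. Only the cbp20 cbp80 arrays stood apart, and se-2 lay within the WT range. The se-2 level was 5.11-fold lower than that of cbp20 cbp80 (log2 difference −2.35, SE 0.06, adjusted p = 8.67e-06), and the other probe of this unit gave −2.38. Against WT, with the slide as a random block, cbp20 cbp80 was higher by 2.43 (SE 0.41, adjusted p = 0.0143) and se-2 by 0.08 (SE 0.41, adjusted p = 0.980). The other probe gave 3.79 (adjusted p = 0.00627) and 1.41 (adjusted p = 0.225) for these comparisons, so the place of se-2 relative to WT depends on the probe. The unit is numbered between starts of 19838836 and 19979317 on chromosome 5.

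AT5TU059430 had the same order of genotypes, with 1.34, 1.35 and 1.31 in cbp20 cbp80, −0.50, −0.49 and −0.38 in se-2 and −0.47, −0.84 and −0.39 in WT. The mutants differed by −1.79 (SE 0.05, adjusted p = 1.00e-05), cbp20 cbp80 exceeded WT by 1.90 (SE 0.37, adjusted p = 0.0211), and se-2 overlapped WT. Its other probe gave −1.69 between the mutants, and 1.16 for cbp20 cbp80 against WT, which was not called (adjusted p = 0.127). AT2TU015540 read −2.59, −2.53 and −2.61 in cbp20 cbp80, −3.52, −3.54 and −3.51 in se-2 and −4.05, −4.15 and −4.35 in WT. It too was higher in cbp20 cbp80 than in WT (difference 1.61, SE 0.33, adjusted p = 0.0271), and its se-2 arrays lay between the other genotypes.

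In other units the se-2 arrays were the low ones. AT2TU003060 read −5.90, −5.67 and −6.03 in se-2, −4.33, −4.38 and −4.34 in cbp20 cbp80 and −4.31, −4.87 and −4.51 in WT. The mutants differed by −1.52 (SE 0.10, adjusted p = 1.77e-04), and se-2 lay below all WT arrays while cbp20 cbp80 overlapped the WT range. Against WT the se-2 difference of −1.30 (SE 0.56) did not pass with the slide as a block (adjusted p = 0.286).

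AT3TU062330 read −4.79, −5.05 and −4.83 in se-2, −3.35, −3.48 and −3.44 in cbp20 cbp80 and −0.67, −3.39 and −1.85 in WT. The mutants did not overlap (difference −1.47, SE 0.08, adjusted p = 1.21e-04, with 3 probes from −1.59 to −1.47), and the WT arrays spread over nearly 3 log2 units. AT5TU051220 read −5.40, −5.50 and −5.66 in se-2, −4.16, −3.92 and −4.26 in cbp20 cbp80 and −5.16, −4.45 and −2.89 in WT. Its mutants differed by −1.40 (SE 0.11, adjusted p = 4.13e-04), the WT arrays overlapped cbp20 cbp80, and se-2 lay below all of them. With all 9 arrays in the fit both calls ended (adjusted p = 0.209 for AT3TU062330 and 0.163 for AT5TU051220).

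Consecutive numbers AT4TU026280, AT4TU026290 and AT4TU026300, between starts of 7729442 and 8131889 on chromosome 4, were all lower in se-2. AT4TU026290 read −3.90, −3.87 and −3.76 in se-2, −2.47, −2.44 and −2.34 in cbp20 cbp80 and −2.46, 0.05 and −2.29 in WT. AT4TU026300 read −6.16, −6.11 and −6.37 in se-2, −5.16, −4.93 and −4.51 in cbp20 cbp80 and −4.86, −2.39 and −5.09 in WT. In both units WT replicate 2 stood more than 2 log2 units above the other WT arrays, which overlapped cbp20 cbp80. The mutants differed by −1.24 (SE 0.15, adjusted p = 0.00165) in AT4TU026280, −1.42 (SE 0.06, adjusted p = 5.13e-05) in AT4TU026290 and −1.35 (SE 0.18, adjusted p = 0.00242) in AT4TU026300. The files do not say whether these numbers belong to separate transcripts, so they may not be independent measurements. With all 9 arrays in the fit, the calls of AT4TU026290 and AT4TU026300 ended (adjusted p = 0.233 and 0.306). In raw signal AT4TU026300 read only 7.37, 7.24 and 6.41 in se-2, near background.

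The remaining units lower in se-2 under all scalings were AT1TU076550 (−1.30), AT3TU069290 (−1.28), AT5TU033420 (−1.28), AT2TU000010 (−1.10) and AT4TU016190 (−1.10). AT2TU000010, one of the brightest members, read 4.90, 5.04 and 4.96 in se-2, 6.03, 6.13 and 6.05 in cbp20 cbp80 and 5.53, 5.94 and 6.10 in WT, and its 3 probes gave −1.10 to −1.05. AT1TU002670 passed the rule for naming with −1.32 (SE 0.41, adjusted p = 0.0439), and its se-2 arrays were uneven: it read −2.68, −4.11 and −2.68 in se-2 and −1.94, −1.79 and −1.79 in cbp20 cbp80. Without se-2 replicate 2 its difference was −0.84 and still called, but without any 1 of 4 other arrays its adjusted p rose to between 0.0519 and 0.104. The call ended under 5 of the 7 scalings.

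**Figure D3:**
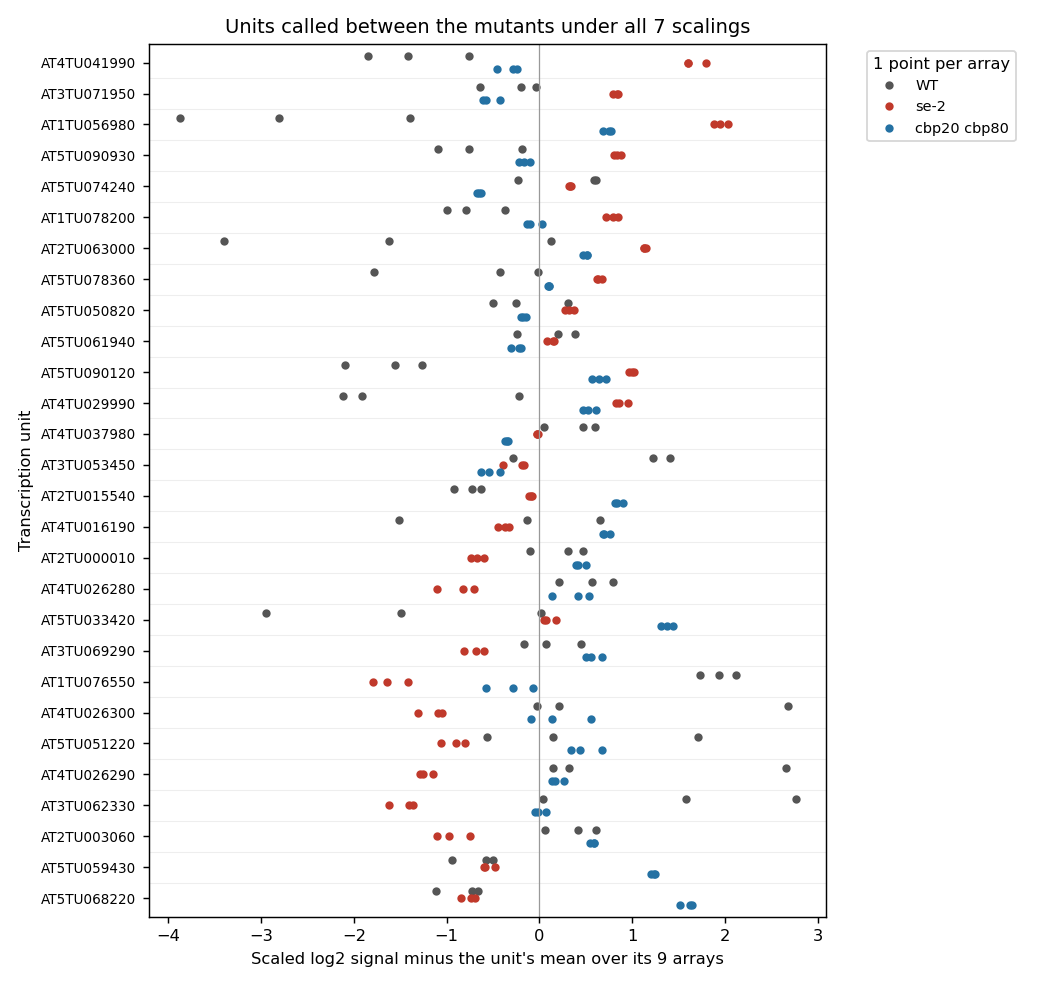
The 28 units called in the same direction between se-2 and cbp20 cbp80 under all 7 scalings (y axis), with the scaled log2 signal of each array minus the unit's mean over 9 arrays (x axis). Each point is 1 array; the units are ordered by the difference, from AT4TU041990 (1.99) at the top to AT5TU068220 (−2.35) at the bottom, and in 27 of the 28 units the grey WT points have a larger SD than those of either mutant.

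Over all 419 members in the reported scaling, 27 were higher and 219 were lower in se-2 than in cbp20 cbp80, and 173 were not called, at an adjusted p under 0.05 over all probes. The background was 11.7% higher and 36.3% lower among all 1691 transcripts tested, against 6.44% and 52.3% of members. Those transcripts needed detection on all arrays of at least 1 genotype only. Among transcripts detected on every array, 4.11% of the 73 units with coordinates in the name were higher and 53.4% lower. The shares were 69.2% and 12.3% for 65 microRNA precursors, and 13.7% and 37.2% for 387 named loci. The members' split was thus near that of the coordinate-named units. The median difference of the members was −0.32, with 90% of them between −0.96 and 0.34, and the median over all transcripts tested was −0.21. Most differences were small: the median size of a called difference was 0.50, and 22 called members differed by more than 2-fold, 4 of them higher and 18 lower in se-2. No share over all transcripts was taken at this size, so that split is no result about the members.

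The balance of directions moved with the scaling and is not a result on its own. Higher and lower members numbered 52 and 138 with the median in place of the 75th percentile, 65 and 108 after quantile normalization, and 66 and 103 in the deposited value table. They numbered 90 and 57 with the percentile over all probes, 19 and 374 after normexp, and 309 and 14 when arrays were scaled to 7 positive control (spike-in) probes of the array, a scaling chosen after seeing the data. The median difference of the members ran from −0.45 under normexp to 0.51 under the control-probe scaling. The median over all tested probes moved with it, from −0.44 to 0.67, and was −0.15 in the reported scaling. Under median scaling, the median over all tested probes was near 0 and that of the members −0.16.

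**Figure D4:**
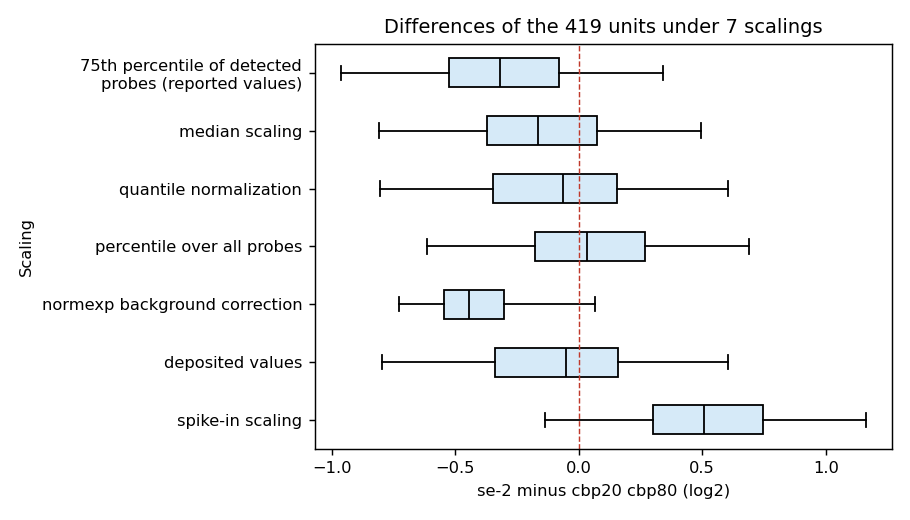
Distribution of the se-2 minus cbp20 cbp80 difference (x axis, log2) over the 419 units under each of 7 scalings (y axis). Boxes give the median and quartiles and whiskers the 5th and 95th percentiles; the dashed line marks 0, and the medians run from −0.45 (normexp) to 0.51 (spike-in scaling).

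The calls were spread over all chromosomes. In the reported scaling, the lower members made up 51 of 107 on chromosome 1, 46 of 82 on 2, 37 of 77 on 3, 33 of 60 on 4 and 52 of 93 on 5, with medians of −0.40 to −0.30. Of the members, 45 had a member next to them in number, in 24 pairs. Both units were called in 7 pairs, with both lower in 6: besides the pairs on chromosome 4 above, AT1TU076540 and AT1TU076550, AT2TU000010 and AT2TU000020, AT2TU045590 and AT2TU045600, and AT5TU059430 and AT5TU059440. The remaining pair, AT2TU010970 (0.24) and AT2TU010980 (−0.16), went opposite ways in the reported scaling. As 246 of the 419 members were called and 219 were lower, such pairs are no result about neighbours. The signs of these small differences also depend on the scaling: AT1TU076540, AT2TU000020, AT2TU045590, AT2TU045600, AT5TU059440 and AT2TU010980 turned positive under spike-in scaling (0.20 to 0.66), and AT2TU010970 turned to −0.03 after normexp.

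Other probes of the same units gave a check of the brightest ones on the same arrays. Of 138 units with at least 2 probes that met the rule, 75 were called by the brightest probe. The next brightest had the same sign in 73 of them, was called the same way in 58 and the opposite way in 1. Both probes share the arrays and the scaling, under which 219 of the 246 called members were lower. Agreement in sign is therefore no independent check. A shift common to all probes does not change the correlation of the differences over the 138 units, which was 0.91 (Pearson). The median gap between the differences of these probes was 0.10 and the largest 0.93. The 3 probes agreed most closely in AT2TU057920 (−0.25 to −0.22), AT1TU073080 (−0.34 to −0.31) and AT2TU010970 (0.20 to 0.24). They were farthest apart in AT5TU087180 (−0.45 to 0.23), AT3TU016380 (−0.30 to 0.29) and AT4TU002560 (−0.72 to −0.13), and in the first and second of these the direction depends on the probe. In AT2TU057920, AT1TU073080, AT5TU087180 and AT4TU002560 the brightest probe's difference turned positive under spike-in scaling (0.36 to 0.60), and in AT3TU016380 it turned to −0.14 after normexp.

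Each mutant against WT asks which units differ in the SERRATE mutant or in the cap-binding double mutant. With the slide as a random block, 10 members were higher and 9 were lower in se-2 than in WT, and 12 were higher and 3 were lower in cbp20 cbp80. The background among 1724 transcripts tested was 5.51% higher and 1.28% lower in se-2 and 4.93% higher and 0.638% lower in cbp20 cbp80, against 2.39%, 2.15%, 2.86% and 0.716% of members. Members also had to be detected on every array, and other transcripts so detected differed by class. In se-2, 55.4% of the 65 microRNA precursors were higher and 1.54% lower, against 1.81% and 2.58% of the 387 named loci. In cbp20 cbp80 these shares were 44.6% and 1.54%, against 2.07% and 1.55%. Of the 73 units with coordinates in the name, 1.37% were higher and 0 lower in each mutant. Both comparisons use the same 3 WT arrays, so their values are only given side by side.

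The counts against WT depended on single WT arrays. Without WT replicate 2 they were 25 higher and 21 lower in se-2, and 32 higher and 14 lower in cbp20 cbp80, while without WT replicate 3 they were 19 and 27, and 29 and 17. Without any 1 of the other arrays, 8 to 9 were higher and 2 to 6 lower in se-2, and 8 to 13 higher and 1 to 3 lower in cbp20 cbp80. Scaling moved the split as well: in se-2 it was 32 higher and 1 lower with the percentile over all probes, and 11 and 173 after normexp. In cbp20 cbp80 it was 18 and 2, and 7 and 3, under these settings. Shares over all transcripts were not taken for these runs, so the counts are no result about the members. For se-2 against WT, the median over all tested probes was 0.95 with the percentile over all probes and −0.77 after normexp. The members' medians were 0.66 and −0.74.

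The block had a consensus correlation of 0.948 between arrays of a slide. Only the slide of the mutants held several arrays, so this value cannot tell slides from other differences among the WT arrays. The block allows for such variation as a whole, but the slide that holds both mutants stays tied to their genotypes. Without it, 51 members were higher and 122 lower in se-2 (12.2% and 29.1%, beside 18.2% and 19.5% of all transcripts tested). In cbp20 cbp80, 73 members were higher and 67 lower (17.4% and 16%, beside 24.4% and 14% of all transcripts tested). The median difference of the members was −0.29 in se-2 and 0.03 in cbp20 cbp80, beside 0.01 and 0.26 over all transcripts tested. Under the control-probe scaling limma called 0 members in either comparison. At an unadjusted p under 0.05 it gave 14 higher and 10 lower in se-2, and 7 higher and 18 lower in cbp20 cbp80. The control signal itself was 11.1, 11.6 and 10.1 on the WT arrays and 11.9 to 12.2 on the mutant arrays, as a mean log2 signal over 7 probes.

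AT1TU056980 had the largest rise in se-2. From the WT values of −3.24, −0.76 and −2.17 given above, the mean of se-2 was higher by 4.64 on the log2 scale (SE 0.80, adjusted p = 0.0107) and that of cbp20 cbp80 by 3.43, or 10.8-fold (SE 0.80, adjusted p = 0.0466). All mutant arrays lay above all WT arrays, by at least 2 log2 units. The 3 probes of the unit gave rises of 3.88 to 4.64 for se-2, and of 2.70 to 3.43 for cbp20 cbp80. The cbp20 cbp80 call ended without any 1 of the 6 mutant arrays (adjusted p up to 0.0871) and under median scaling (0.0551), while the se-2 call held without each array.

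AT5TU072360 had the largest rise in cbp20 cbp80. It read −3.53, −2.56 and −3.78 in WT, −0.10, −0.08 and −0.07 in se-2 and 0.82, 0.88 and 0.90 in cbp20 cbp80. No genotypes overlapped, and the double mutant was highest. The rise was 17.8-fold in cbp20 cbp80 (4.16, SE 0.48, adjusted p = 0.00308) and 9.24-fold in se-2 (3.21, SE 0.48, adjusted p = 0.00553). Both calls held under the 6 scalings planned and without each array. The unit is numbered between starts of 20917213 and 21054587 on chromosome 5.

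AT5TU090120, AT1TU018120, AT3TU060000 and AT4TU060710 were higher in both mutants than in WT. AT5TU090120 read −3.05, −2.77 and −3.59 in WT, −0.50, −0.54 and −0.48 in se-2 and −0.78, −0.86 and −0.93 in cbp20 cbp80, differences of 2.63 (SE 0.43, adjusted p = 0.00817) and 2.28 (SE 0.43, adjusted p = 0.0191). AT1TU018120 read −0.85, −1.31 and −0.47 in WT, 1.79, 1.65 and 1.77 in se-2 and 1.80, 1.69 and 1.61 in cbp20 cbp80. Its differences were 2.61 (adjusted p = 0.0152) and 2.57 (adjusted p = 0.0192), and the mutants overlapped each other.

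AT3TU060000 read −4.80, −4.63 and −5.00 in WT, −2.35, −2.44 and −2.38 in se-2 and −2.39, −2.21 and −2.28 in cbp20 cbp80, with differences of 2.42 (adjusted p = 0.00945) and 2.52 (adjusted p = 0.0106). AT4TU060710 read −3.62, −4.57 and −4.19 in WT, −1.81, −1.86 and −1.88 in se-2 and −1.47, −1.45 and −1.50 in cbp20 cbp80, with differences of 2.28 (adjusted p = 0.0146) and 2.65 (adjusted p = 0.00988). In both units the mutant arrays lay more than 1 log2 unit above the highest WT array. AT4TU060710 lost its cbp20 cbp80 call under normexp (0.85, adjusted p = 0.151). The cbp20 cbp80 calls of AT4TU060710 and AT1TU018120 ended without the filter (adjusted p = 0.0612 and 0.0715). They also ended when only the arrays compared were fitted (adjusted p = 0.0624 and 0.0842). AT3TU080550 and AT3TU004930 were also higher in both mutants, by 1.84 and 1.51 in se-2 (adjusted p = 0.0354 and 0.0466) and by 2.14 and 2.04 in cbp20 cbp80 (adjusted p = 0.0211 and 0.0156). The other probe of each unit was also higher but called in neither mutant. Its adjusted p in se-2 and cbp20 cbp80 was 0.0797 and 0.0525 for AT3TU080550, and 0.165 and 0.0786 for AT3TU004930.

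AT3TU077970 shows how much a single probe can carry. Its brightest probe read −4.66, −3.97 and −3.89 in WT, −1.25, −1.29 and −1.27 in se-2 and −1.28, −1.25 and −1.20 in cbp20 cbp80, rises of 2.90 (SE 0.39, adjusted p = 0.00347) and 2.93 (SE 0.39, adjusted p = 0.00501). The other probes of the unit gave 0.09 and −0.02 in se-2 and 0.34 and 0.38 in cbp20 cbp80, none of them called. The mean of its 3 probes was not called in either mutant (0.99, adjusted p = 0.435, and 1.22, adjusted p = 0.328), so this rise belongs to 1 probe and not to the whole unit.

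AT4TU041990 was called against WT in se-2 (3.01, SE 0.58, adjusted p = 0.0183) and not in cbp20 cbp80 (1.01, SE 0.58, adjusted p = 0.453). The se-2 call ended under normexp, where the difference was 0.27 (adjusted p = 0.462). The test between the mutants above is the test of this contrast. In raw signal the unit read 5.69, 5.48 and 4.74 in WT, near background, which limits the size of both differences from WT.

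AT3TU059670 and AT3TU007380 were lower in both mutants than in WT. AT3TU059670 read −0.15, −0.06 and 0.12 in WT, −2.56, −2.48 and −2.58 in se-2 and −2.38, −2.40 and −2.43 in cbp20 cbp80, with WT arrays close together and no overlap between WT and either mutant. It fell by 2.51 (SE 0.34, adjusted p = 0.00327) in se-2 and by 2.37 (SE 0.34, adjusted p = 0.00614) in cbp20 cbp80, and its other probe was called lower in both. Under the percentile over all probes the se-2 difference was −1.56 and missed the threshold (adjusted p = 0.0542). The unit is numbered between starts of 17249716 and 17272911 on chromosome 3.

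AT3TU007380 read −1.12, −2.04 and −2.50 in WT, −5.03, −5.13 and −4.84 in se-2 and −4.68, −4.61 and −4.69 in cbp20 cbp80. It fell 8.65-fold in se-2 (difference −3.11, SE 0.62, adjusted p = 0.0214) and 6.83-fold in cbp20 cbp80 (−2.77, SE 0.62, adjusted p = 0.0400). Without single arrays the cbp20 cbp80 call ended in 5 of 9 cases, with an adjusted p of up to 0.0861. It also ended with the percentile over all probes (−2.17, adjusted p = 0.0542), after normexp (−1.25, adjusted p = 0.0663) and without the filter (adjusted p = 0.0994). The se-2 call ended when only the arrays compared were fitted (adjusted p = 0.0977).

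AT1TU058220 read −0.60, −2.17 and −0.60 in WT, −4.41, −4.42 and −4.47 in se-2 and −3.60, −3.87 and −3.83 in cbp20 cbp80, and fell by 3.31 (SE 0.69, adjusted p = 0.0274) in se-2. AT1TU076550 read −2.73, −2.91 and −3.11 in WT, −6.64, −6.26 and −6.49 in se-2 and −4.92, −5.42 and −5.13 in cbp20 cbp80, and fell by 3.55 (SE 0.85, adjusted p = 0.0479) in se-2. AT2TU006450 read −2.14, −2.85 and −1.77 in WT, −4.44, −4.44 and −4.49 in se-2 and −4.01, −3.98 and −4.14 in cbp20 cbp80, and fell by 2.20 (SE 0.48, adjusted p = 0.0330) in se-2. In all 3 units both mutants lay below every WT array, and the cbp20 cbp80 differences of −2.64, −2.24 and −1.79 were not called (adjusted p = 0.0786, 0.235 and 0.0869). These se-2 calls lay close to the threshold: leaving out single arrays ended them in 5, 4 and 6 of 9 cases, and they held under 5, 2 and 3 of the 6 scalings planned. The other probe of AT1TU058220 gave −2.45 in se-2 and was not called (adjusted p = 0.119). In raw signal AT1TU076550 read only 5.3, 6.5 and 5.9 in se-2. The lowest signal well above background on those arrays was 4.48 to 4.54, so background limits the size of its fall.

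AT5TU048980 read −0.12, −1.36 and 0.35 in WT, −3.35, −3.35 and −3.21 in se-2 and −3.87, −3.84 and −3.59 in cbp20 cbp80. The fall was called in cbp20 cbp80 (−3.39, SE 0.72, adjusted p = 0.0327) and not in se-2 (−2.93, SE 0.72, adjusted p = 0.0531), and the mutants differed from each other by 0.46 (SE 0.09, adjusted p = 0.0103), a difference that turned to −0.17 after normexp. The cbp20 cbp80 call ended in 6 of the 9 cases of leaving out an array, and the other probe of the unit gave −3.19 and was not called (adjusted p = 0.138). The remaining members called lower in se-2 were AT5TU022670, AT2TU048380, AT3TU071530 and AT5TU070830, with differences from −2.15 to −1.94.

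**Figure D5:**
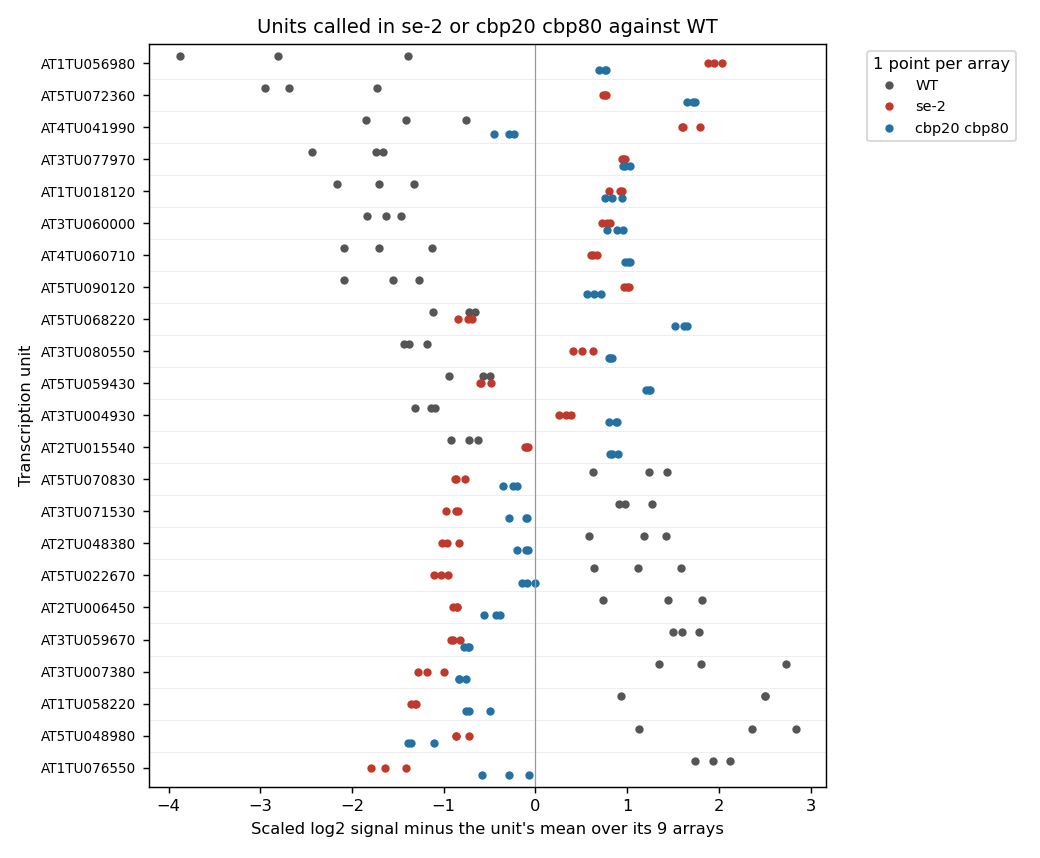
The 23 units called in se-2 or cbp20 cbp80 against WT with the slide as a random block (y axis), with the scaled log2 signal of each array minus the unit's mean over 9 arrays (x axis). Each point is 1 array; the grey WT points lie at one end and the se-2 and cbp20 cbp80 points toward the other, except in AT5TU068220 and AT5TU059430, where se-2 lies with WT, in AT2TU015540, where se-2 lies between, and in AT4TU041990, where cbp20 cbp80 lies between and nearer to WT.

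The 28 units that differed between the mutants stood in different relations to WT. Of the 14 higher in se-2, 3 were also called higher in se-2 than in WT and 2 in cbp20 cbp80. Of the 14 lower in se-2, 1 (AT1TU076550) was called lower in se-2 than in WT, and 3 (AT5TU068220, AT5TU059430 and AT2TU015540) were called higher in cbp20 cbp80 than in WT. The others were called in neither comparison with WT when the slide was taken as a block.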

How the data were processed

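RNA from 3 WT, 3 se-2 and 3 cbp20 cbp80 seedling samples had been hybridised in 1 colour (Cy3) to a custom Agilent array, 1 array a sample. Intensity values were as deposited: per the file headers, Agilent Feature Extraction (version 10.5.1.1 on 2 WT arrays, 10.7.3.1 on 7) gave each spot a background-corrected processed signal and a flag for being well above background. The protocol named for WT replicate 3 differed from that of the other arrays. A table of log2 values deposited by the authors was used only as an alternative. How it was scaled and centred is not given in the sources used here. Its column medians are 0.322 to 0.323, and the rank correlations with the scanner values are 0.988 to 1, so its direction is that of the signals.

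Groups were taken from the genotype labels. Signals were put on the log2 scale and each array was centred on the 75th percentile of the 1835 probes that passed the detection flag on every array. Control spots were left out and outlier spots set to missing. Probes that carried the flag throughout at least 1 genotype in the fit were tested in R 4.3.3 with limma 3.58.1 (lmFit and eBayes, two-sided), and p-values were adjusted by Benjamini-Hochberg over all probes, with a threshold of 0.05. se-2 was compared with cbp20 cbp80 in the 6 arrays of their shared slide (3040 probes), and each mutant with WT in all 9 arrays, taking slide as a random block (3103 probes). All 419 units passed this filter, since the selection by detection implies it. The slide is the number in the file headers, and it says nothing of extraction or labelling. Every adjusted p in the report is limma's. Arrays limit the precision by their number, and no counting depth applies.

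Named units were the 8 most higher and 8 most lower called units between the mutants, up to 5 called rises and 5 called falls by size against WT, the 6 brightest and 3 dimmest, the 5 with the smallest and with the largest SD, the 3 with the closest and the 3 with the widest probe range, and the 3 brightest units detected on 8 arrays. Units called under all scalings and other units of short lists were named after their values were seen. The members and lists were chosen with earlier results of these data known. Alternatives were other scalings, normexp background correction with an offset of 50 on median signals, other filters, the mean of a unit's probes, the replicate number as a block, other sets of arrays and leaving out each array. The fit was tested on simulated data. Figures were drawn with Python 3.11.15 and matplotlib 3.10.9.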

Additional observations from a re-analysis of the deposited data

How the results depend on the processing

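Between se-2 and cbp20 cbp80, the higher and lower units (27 and 219 as reported) numbered 52 and 138 with median scaling, 65 and 108 after quantile normalization, 90 and 57 with the percentile over all probes, 66 and 103 in the deposited values, 309 and 14 with spike-in scaling, and 6 and 23 with all 9 arrays in the fit. Normexp gave 19 and 374. These counts, and those against WT below, are of members. Beyond the reported fits and the fits without the slide block, no share over all transcripts was taken for a single setting. Leaving out 1 array gave 20 to 31 higher and 179 to 215 lower. The cause was not tested.

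For se-2 against WT (10 and 9 as reported), the percentile over all probes gave 32 and 1, normexp 173 lower, quantile normalization 4 lower, no filter 3 lower, spike-in scaling 0 and 0, no slide block 51 and 122, and only the arrays compared 5 and 1. Leaving out 1 array gave 8 to 25 higher and 2 to 27 lower. For cbp20 cbp80 against WT (12 and 3), normexp gave 7 higher, median scaling 5 lower, no filter 2 and 0, spike-in scaling 0 and 0, no slide block 73 and 67, and only the arrays compared 2 and 1. Leaving out 1 array gave 8 to 32 higher and 1 to 17 lower. Where limma called 0, an unadjusted p under 0.05 gave 27 lower for cbp20 cbp80 without the filter, and the report gives the spike-in counts. The cause was not tested.

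No pairing by replicate number was seen: deviations of arrays with the same number correlated between −0.186 and 0.142. For arrays with different numbers the range was −0.247 to 0.217. With so few arrays a genotype, this cannot show that the replicates were unpaired. With the replicate number as a block the counts were 23 and 185 between the mutants, 2 and 1 for se-2 against WT, and 1 and 0 for cbp20 cbp80 against WT (12 lower at an unadjusted p under 0.05). No called unit picked by the naming rule for its difference between the mutants or from WT reversed that difference under an alternative run. This check covered 16 units between the mutants, 10 for se-2 against WT and 8 for cbp20 cbp80 against WT. Other units called against WT were not part of it. Of 37 units named for other reasons or as neighbours, or only against WT, 27 were called between the mutants, and 22 of these changed the sign of that difference under at least 1 scaling. In the comparisons with WT, an SD of 0.47 between WT arrays limits what can be called, and signals near background limit the dimmest units.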
